A study of Mus musculus with 48 samples.

Results

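The nuclear oxidative phosphorylation genes are the genes of the cell nucleus that encode subunits of the 5 respiratory chain complexes of mitochondria. They were taken from the deposited count table by symbol: the Nduf series of complex I with its a, b, c, s and v members, Sdha to Sdhd of complex II, the Uqcr genes of complex III, the numbered Cox4 to Cox8 genes of complex IV and the Atp5 genes of complex V, with entries named as pseudogenes left out. This gave 85 entries with 84 symbols among the 36983 entries of the table: 37 in complex I, 4 in complex II, 8 in complex III, 18 in complex IV and 18 in complex V. One symbol, Atp5o, the oligomycin sensitivity subunit that joins the stator to the catalytic head, had 2 entries under 1 identifier, and both were kept. The RNA came from mouse E14 embryonic stem cells of 4 genotypes, KAT6A-/- KO, KAT6B-/- KO, KAT6A-/-; KAT6B-/- dKO and E14 wildtype, called KAT6A KO, KAT6B KO, dKO and E14 here. KAT6A and KAT6B are histone lysine acetyltransferases. Each genotype was sampled on 4 days of a differentiation towards neurons, with 3 libraries a group and 48 in all. Day 0 cells were untreated stem cells, day 2 cells were embryoid bodies, day 6 cells were embryoid bodies that had received all-trans retinoic acid, and day 15 cells were neural progenitors dissociated, plated and cultured in medium with N2 and B27 supplements. The 3 replicates of a group came from independent differentiation experiments, per the design text, and the number of clones behind each knockout is not given there.

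In oxidative phosphorylation, complex I takes electrons from NADH and complex II takes them from succinate, and both pass them through ubiquinone to complex III. Cytochrome c carries them on to complex IV, which reduces oxygen. Complexes I, III and IV pump protons out of the mitochondrial matrix, and complex V, the ATP synthase, lets them back through a ring of c subunits and makes ATP. Most subunits are encoded in the nucleus and a small set, including the core of complex IV, in mitochondrial DNA, so each complex needs both genomes except complex II, whose subunits are all nuclear. Pluripotent stem cells are known for high glycolysis, and neurons for a strong reliance on oxidative phosphorylation. Several complex IV subunits exist as a ubiquitous and a tissue isoform made by separate genes. The transcription factors NRF1, GABPA and YY1 are known regulators of many of these genes in mammals.

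The promoters of the members were searched for letters that these factors are known to bind, in the 250 bases before each gene's start in the RefSeq promoter table of build GRCm38.p6, which held 69 of the members. The count table itself is on GRCm39, per the submitters' processing notes, so these coordinates apply to the promoters only. Genes were counted, and a gene with several promoters there counts as a match if any of them held the letters. The letters GCATGCGC, the core of the NRF1 motif, stood on either strand in 8 of the 69 members, which is 11.59%, and in 2.561% of all genes in the promoter table. The full NRF1 palindrome, which is this core with GC added before it and reads the same on both strands, stood in 4 of the 69, which is 5.797%, and in 237 of the 27025 genes, which is 0.877%. Every palindrome match is thus also a core match. The GABPA letters CCGGAAGT stood in 3 members (4.348%, against 3.23% of all genes), and the YY1 letters AAGATGGC in 1 (1.449%, against 1.828% of all genes), again on either strand. The 4 promoters with the palindrome are printed because they join members of complexes I, IV and V that share these letters and are followed through the results. They are those of Atp5g2, one of the genes for the c subunit of the ATP synthase rotor ring (chr15:102671048-102671297, minus strand), Atp5k, the e subunit of complex V (chr5:108434400-108434649, minus strand), Cox6a1, the ubiquitous form of complex IV subunit 6A (chr5:115348959-115349208, minus strand), and Ndufa11, a membrane arm subunit of complex I (chr17:56717512-56717761, plus strand). Each runs 5′ to 3′ on the strand of its gene, with the palindrome in capitals.
Atp5g2: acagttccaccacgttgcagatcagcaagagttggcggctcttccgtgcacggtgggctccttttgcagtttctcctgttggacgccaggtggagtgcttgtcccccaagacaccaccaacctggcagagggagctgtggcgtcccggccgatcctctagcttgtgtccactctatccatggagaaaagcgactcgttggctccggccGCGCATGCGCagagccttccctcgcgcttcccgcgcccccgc
Atp5k: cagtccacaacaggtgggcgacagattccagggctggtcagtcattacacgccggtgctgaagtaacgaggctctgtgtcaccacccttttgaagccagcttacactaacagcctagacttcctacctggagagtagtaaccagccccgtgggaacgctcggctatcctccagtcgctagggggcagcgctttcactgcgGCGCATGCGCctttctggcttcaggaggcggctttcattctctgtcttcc
Cox6a1: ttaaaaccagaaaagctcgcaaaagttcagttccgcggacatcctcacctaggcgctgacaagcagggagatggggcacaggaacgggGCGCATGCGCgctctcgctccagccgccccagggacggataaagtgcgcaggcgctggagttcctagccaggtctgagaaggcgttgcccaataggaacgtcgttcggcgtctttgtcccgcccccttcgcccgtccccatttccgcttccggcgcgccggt
Ndufa11: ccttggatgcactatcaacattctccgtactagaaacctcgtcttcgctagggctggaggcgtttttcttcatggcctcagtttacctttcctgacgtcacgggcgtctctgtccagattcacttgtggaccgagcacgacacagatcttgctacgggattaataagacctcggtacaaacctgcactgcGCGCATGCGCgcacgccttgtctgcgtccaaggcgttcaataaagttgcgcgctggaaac
A match describes the letters in this window and is neither a binding site nor a cause. The promoters of Cox7a1 and Cox7a2, a pair of complex IV isoform genes described below, held none of the 4 motifs in the same window.

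The libraries held between 22654491 and 72773858 counts. In bulk RNA, fewer cells of a type and less RNA of a gene in each cell cannot be told apart, and this holds for every difference below. The targeted genes were still counted in the knockouts, on average below E14: Kat6a in KAT6A KO libraries averaged 58.2%, 50.0%, 67.5% and 54.0% of the E14 mean on days 0, 2, 6 and 15, and Kat6b in KAT6B KO libraries 62.9%, 59.9%, 73.5% and 96.5%. In dKO libraries Kat6a stood at 75.6%, 66.1%, 70.3% and 60.1% of the E14 mean on these days and Kat6b at 65.8%, 88.9%, 85.1% and 94.8%. At day 15, Kat6b went against the label in 1 library of each knockout of it: it had 125, 78.5 and 72.7 CPM in KAT6B KO and 80.0, 84.6 and 106.5 CPM in dKO, against 89.5, 92.8 and 104 CPM in E14, so KAT6B KO replicate 1 and dKO replicate 3 stood above all E14 libraries. Day 15 results are therefore given for the libraries labelled KAT6B KO and dKO, and also without those 2. Whether the counted exons include the deleted part is not given in the sources used here. Differentiation markers moved with the labels in E14: 9 of 10 neuron markers were higher at day 15 than at day 0 and none lower, 9 of 10 naive pluripotency markers were lower and all 10 mitosis and replication markers were lower. All 10 mesenchyme markers were also higher at day 15. A few libraries stood apart from their groups. E14 day 0 replicate 1 had the highest summed level of the members of the whole series and the lowest level of mitochondrially encoded transcripts of any day 0 library, KAT6B KO day 2 replicate 2 had the highest median level of the members, at 6.40 on the log2 CPM scale, and KAT6B KO day 15 replicate 1 had 18891 CPM of mesenchyme markers, against 4978 to 5615 CPM in the other KAT6B KO day 15 libraries. All levels are CPM, the share of a library's counts scaled by the trimmed mean of M values over all 48 libraries.

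Among the members, the catalytic head of the ATP synthase gave the highest levels. Levels in this paragraph are given per kilobase of the union of a gene's exons. A gene whose union is longer than its main transcript comes out lower, here and in the shares per exon length below. Per kilobase of exon, Atp5b, the catalytic beta subunit, averaged 281 CPM per kb over the 48 libraries and Atp5a1, the alpha subunit that alternates with it, 251 CPM per kb. Cox8a, the ubiquitous small subunit 8A of complex IV, averaged 159 CPM per kb, Cox4i1, the ubiquitous subunit 4 isoform, 156 CPM per kb, and Uqcr10, a small subunit of complex III, 143 CPM per kb. The highest level of complex I was that of Ndufa2, an accessory subunit of the matrix arm, at 71.9 CPM per kb, and that of complex II was Sdhd, one of its membrane anchors, at 62.9 CPM per kb. The lowest level was 3.69 CPM per kb in complex I (Ndufb2, an accessory subunit of the membrane arm), 21.3 CPM per kb in complex II (Sdhc, the other anchor), 43.2 CPM per kb in complex III (Uqcrb, a small subunit near the ubiquinone site) and 10.4 CPM per kb in complex V (Atp5l, the g subunit). The tissue isoforms of complex IV were on average below their ubiquitous partners. Cox7a1, the heart and skeletal muscle form, averaged 8.68 CPM per kb, Cox4i2, the lung form, 1.69 CPM per kb, and Cox6b2, known from testis, 17.7 CPM per kb. Cox7b2 and Cox8c, both known from testis, Cox6a2, the heart and muscle form of subunit 6A, and Cox8b, the muscle form of subunit 8 in mouse, averaged 0.409, 0.231, 0.124 and 0.00414 CPM per kb in this order, and Cox8b had 3 counts in all 48 libraries together. The 2 Atp5o entries overlap on chromosome 16, so their counts are not independent. They have no length here and were left out of this comparison. Many of these genes have processed pseudogenes elsewhere in the genome, and how the counting treated reads that match several places is not given in the sources used here.

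The summed level of the members was lower at day 15 than at day 0 in all 4 genotypes. In E14, complex V carried most of the difference, and it also had the largest sum of any complex at day 0. Its sums count both Atp5o entries, which overlap. Over all 85 entries, E14 libraries averaged 9284 ± 1080 CPM at day 0, 8280 ± 187 CPM at day 2, 6456 ± 707 CPM at day 6 and 5522 ± 103 CPM at day 15 (SD, n = 3 each). The E14 libraries stood at 10423, 8275 and 9155 CPM at day 0 and at 5564, 5596 and 5404 CPM at day 15. All day 15 E14 libraries were below all day 0 ones, with close agreement at day 15 and a wide spread at day 0. Complex V sums in E14 averaged 4514 ± 433, 4027 ± 92.3, 2810 ± 254 and 2359 ± 56.4 CPM on days 0, 2, 6 and 15. Complex I sums averaged 1990 ± 263, 1848 ± 85.6, 1613 ± 219 and 1374 ± 23.6 CPM on the same days, and complex IV sums 1384 ± 256, 1184 ± 50.0, 997 ± 110 and 889 ± 21.7 CPM. Complex III sums averaged 920 ± 110, 760 ± 13.8, 632 ± 82.4 and 582 CPM, and complex II sums 477 ± 23.8, 461 ± 5.70, 404 ± 46.3 and 317 ± 3.46 CPM. In each complex the lowest E14 mean of the 4 days was that of day 15.

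**Figure D1:**
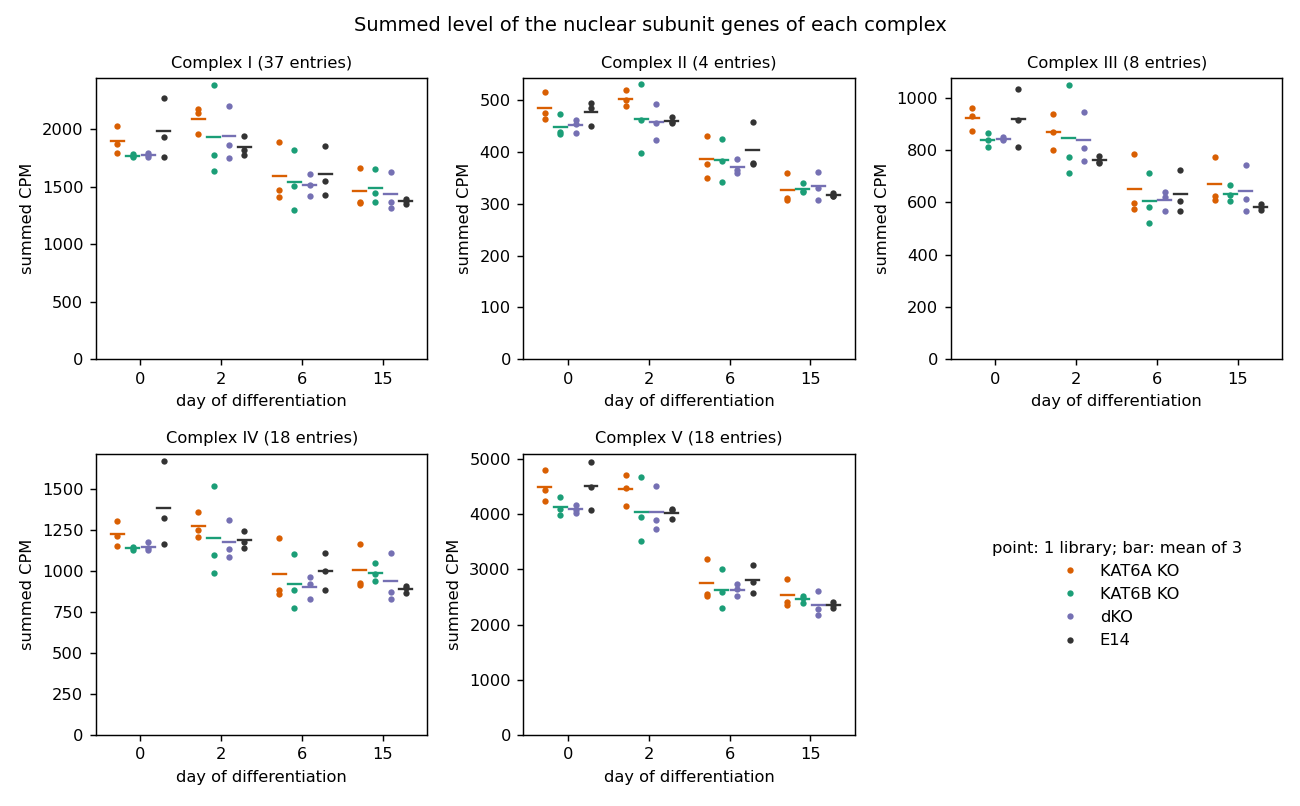
Summed CPM of the nuclear subunit genes of each complex by day (vertical axes, CPM; horizontal axes, day of differentiation), one panel per complex, with a point for each library, a bar at the mean of 3 and colours for the genotypes. The complex V mean is 2531 CPM in KAT6A KO, 2465 CPM in KAT6B KO, 2354 CPM in dKO and 2359 CPM in E14 at day 15, each under its day 0 mean.

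Genes were tested one by one with edgeR's quasi-likelihood test, and a gene is called higher or lower where its Benjamini-Hochberg adjusted p over all genes of the fit is under 0.05. Between day 15 and day 0 in E14, 55 of the 81 members tested were lower and 2 were higher. Over all 20534 genes tested, 69.7% were called, 33.2% lower and 36.5% higher, so the share of members lower was above that of all genes. The median log2 fold change of the members was -0.49, against 0.09 over all genes, and 78 of the 81 estimates were below 0. The 4 members not tested for low counts were Cox7b2, Cox8b, Cox6a2 and Cox8c. Without E14 day 0 replicate 1, the library that stood highest, 46 were lower and 2 higher and the median was -0.44.

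In complex V, 17 of 18 entries fell and none rose, with a median log2 fold change of -0.77. Atp5b (chr10:127919142-127926260, GRCm39, plus strand) had 748, 836 and 754 CPM in E14 at day 15, against 1841, 1525 and 1702 CPM at day 0. The libraries of the 2 days were far apart, and the log2 fold change was -1.09 ± 0.11 (SE, edgeR's quasi-likelihood test, adjusted p = 1.23e-06). Atp5a1 had 535, 527 and 518 CPM at day 15, against 1168, 963 and 1001 CPM at day 0, again without overlap, with a log2 fold change of -0.96 ± 0.12 (SE, adjusted p = 6.71e-06, same test). The c subunit of the rotor ring is made by 3 genes, Atp5g1, Atp5g2 and Atp5g3, which encode the same mature protein. Atp5g1 had 79.3, 65.3 and 70.4 CPM at day 15, against 213, 146 and 189 CPM at day 0, and its log2 fold change of -1.32 ± 0.15 (SE, adjusted p = 2.14e-06) was the lowest of complex V. Atp5g2, whose promoter is printed above, fell by 0.99 ± 0.12 on the log2 scale and Atp5g3 by 0.81 ± 0.15 (SE). Atp5c1, the gamma subunit of the central stalk, fell by 0.79 ± 0.13, and Atp5pb, the b subunit of the peripheral stalk, by 0.76 ± 0.12 (SE, adjusted p = 4.9e-05). Atp5k, the other complex V gene with a printed promoter, fell by 0.83 ± 0.23 (SE, adjusted p = 0.0058). The 2 Atp5o entries fell by 0.56 and 0.49. The 1 entry of complex V not called was Atp5mpl, a small membrane subunit, with a log2 fold change of -0.31 ± 0.17 (SE, adjusted p = 0.119).

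**Figure D2:**
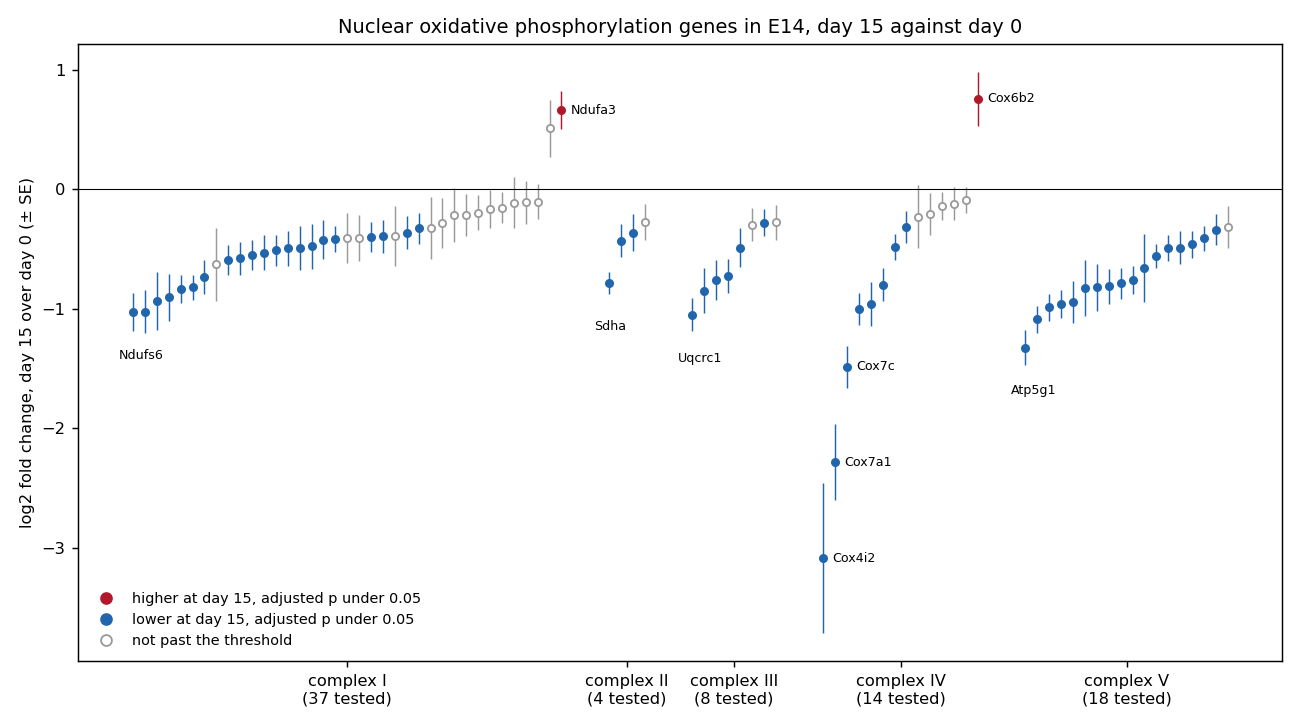
Log2 fold change of each tested member in E14, day 15 over day 0 (vertical axis, bars are 1 SE), ordered within its complex (horizontal axis). Filled points, red for higher and blue for lower, passed the adjusted p threshold of 0.05 and open points did not. In complex V 17 of 18 points are filled and below 0, while Ndufa3 and Cox6b2 are the filled points above 0.

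In complex I, 21 of 37 members fell, 1 rose and the others were not called, with a median log2 fold change of -0.41. The subunits that bind the redox groups of the matrix arm were among those that fell. Ndufv1, which binds NADH and the flavin, had 71.8, 69.3 and 63.7 CPM in E14 at day 15, against 184, 108 and 133 CPM at day 0. Every day 15 library was below every day 0 library, although the day 0 values were spread widely, and the log2 fold change was -1.02 ± 0.18 (SE, edgeR's quasi-likelihood test, adjusted p = 0.00017). Ndufs1, the largest iron-sulfur subunit, had 88.3, 87.2 and 86.5 CPM at day 15, against 157, 154 and 162 CPM at day 0, a tight pattern on both days with a log2 fold change of -0.82 ± 0.10 (SE, adjusted p = 6.28e-06). Ndufv2 fell by 0.51 ± 0.13, Ndufs7 by 0.90 ± 0.20, Ndufs8 by 0.33 ± 0.13 and Ndufs3 by 0.40 ± 0.13 (SE), and these belong with Ndufv1 and Ndufs1 to the conserved core of the complex. Of the accessory subunits, Ndufs6, which joins late in assembly, fell by 1.03 ± 0.16 and Ndufa7 by 0.84 ± 0.12 (SE). Ndufa11 of the membrane arm, with the palindrome in its promoter, fell by 0.58 ± 0.14 (SE, adjusted p = 0.00171). Ndufa4, named for complex I but known to sit in complex IV, had a log2 fold change of -0.16 ± 0.13 (SE, adjusted p = 0.296).

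Ndufa3 (chr7:3620372-3623326, GRCm39, plus strand), an accessory subunit of the membrane arm, was the member of complex I that rose. It had 30.6, 32.0 and 27.0 CPM in E14 at day 15, against 19.1, 19.6 and 19.0 CPM at day 0. The day 15 libraries were all above the day 0 libraries, and the log2 fold change was 0.66 ± 0.16 (SE, edgeR's quasi-likelihood test, adjusted p = 0.00169). Ndufb1, also of the membrane arm, pointed the same way at 0.51 ± 0.24 (SE), with an adjusted p of 0.0706.

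Complexes II and III showed the same direction with fewer genes. Sdha, the flavoprotein that oxidises succinate, had 133, 138 and 137 CPM in E14 at day 15, against 244, 228 and 246 CPM at day 0. The days did not overlap, and Sdha fell by 0.79 ± 0.09 on the log2 scale (SE, edgeR's quasi-likelihood test, adjusted p = 4.6e-06). The anchors Sdhd and Sdhc fell by 0.43 ± 0.14 and 0.36 ± 0.15 (SE), and Sdhb, the iron-sulfur subunit, had a log2 fold change of -0.27 ± 0.15 (SE, adjusted p = 0.123). In complex III, 6 of 8 members fell. Uqcrc1, a core protein of the matrix side, had 139, 142 and 139 CPM at day 15, against 352, 241 and 295 CPM at day 0, and fell by 1.05 ± 0.14 (SE, adjusted p = 1.18e-05). Uqcrfs1, the Rieske iron-sulfur protein, fell by 0.49 ± 0.16 and Uqcrc2, the other core protein, by 0.28 ± 0.11 (SE). Uqcrq, a small subunit, had 94.0, 98.2 and 85.5 CPM at day 15, against 132, 104 and 113 CPM at day 0, and did not pass the test (adjusted p = 0.0669).

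In complex IV, 8 of the 14 members tested fell and 1 rose, and the median log2 fold change was -0.40. Cox7c, a small subunit, had 63.1, 58.2 and 60.2 CPM in E14 at day 15, against 226, 126 and 165 CPM at day 0, with no overlap and a log2 fold change of -1.49 ± 0.18 (SE, edgeR's quasi-likelihood test, adjusted p = 4.65e-06). Cox5a, a subunit on the matrix side, fell by 1.00 ± 0.14, Cox7b by 0.80 ± 0.14 and Cox6c by 0.48 ± 0.11 (SE). Cox4i1 had 204, 204 and 185 CPM at day 15, against 525, 278 and 368 CPM at day 0, and fell by 0.96 ± 0.18 (SE, adjusted p = 0.00033). Its day 0 values ranged widely between replicates, with replicate 1 far above the rest. Cox8a, Cox5b, Cox6b1, Cox6a1 and Cox7a2l, which encodes a factor for supercomplex assembly, had log2 fold changes of -0.09, -0.14, -0.21, -0.23 and -0.12 and did not pass the test. Cox6a1 thus differed in its call from the other 3 genes whose promoters are printed above.

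The isoform genes of complex IV went different ways. Cox4i2 (chr2:152596093-152606957, GRCm39, plus strand), known to be induced by low oxygen, had 1.26, 0.515 and 0.845 CPM in E14 at day 0, 1.07, 1.96 and 1.33 CPM at day 2, 2.74, 2.87 and 2.37 CPM at day 6, and 0, 0.167 and 0.103 CPM at day 15. It was highest in all day 6 libraries and nearly gone from all day 15 libraries, where the 3 libraries together held 16 counts. Its log2 fold change was -4.73 ± 0.62 between day 15 and day 6 and -3.08 ± 0.63 between day 15 and day 0 (SE, edgeR's quasi-likelihood test, adjusted p = 2.44e-05 and 0.000579). Cox4i2 passed the filter on low counts through the earlier days only, so these 2 calls are no support beyond the counts themselves. Between day 6 and day 2 the difference of 0.90 ± 0.50 was not called (SE, adjusted p = 0.166). Per exon length, Cox4i2 made up 0.427%, 1.16%, 2.12% and 0.0902% of the Cox4i1 and Cox4i2 sum on days 0, 2, 6 and 15. At day 6 the share was 2.88 ± 0.293% in KAT6A KO, 3.33 ± 0.647% in KAT6B KO and 2.71 ± 0.690% in dKO, against 2.12 ± 0.0900% in E14 (SD, n = 3 each); in each genotype the day 6 mean was the highest of the 4 days and the day 15 mean the lowest. Mural cell markers, a cell type known for Cox4i2, had 138 to 236 CPM in E14 at day 0, 187 to 211 CPM at day 2, 179 to 270 CPM at day 6 and 108 to 161 CPM at day 15, and 2 of the 6 tested were higher and 2 lower at day 15 against day 6. Of 11 genes of the response to low oxygen, 4 were higher and 3 lower at day 6 against day 2, and 1 was higher and 6 lower at day 15 against day 6. The part of either in the Cox4i2 result was not tested.

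Cox7a1 (chr7:29883569-29885503, GRCm39, plus strand) had 6.62, 4.61 and 4.98 CPM in E14 at day 0, 4.03, 4.04 and 5.07 CPM at day 2, 4.72, 9.32 and 5.95 CPM at day 6, and 1.07, 0.801 and 1.38 CPM at day 15. Every day 15 library was below every earlier one. The log2 fold change was -2.28 ± 0.32 between day 15 and day 0 and -2.60 ± 0.32 between day 15 and day 6 (SE, edgeR's quasi-likelihood test, adjusted p = 2.12e-05 and 1.33e-05). Its ubiquitous partner Cox7a2 had 45.2, 43.8 and 43.7 CPM at day 15, against 46.6, 59.7 and 62.7 CPM at day 0, and its fall of 0.32 ± 0.13 was close to the threshold (SE, adjusted p = 0.0497). Per exon length, Cox7a1 made up 4.13 ± 1.07% of the pair in E14 at day 15, against 14.8 ± 4.56% at day 0 (SD, n = 3 each). At day 6 its E14 share was 22.0 ± 6.68% (SD, n = 3). The highest share of any library was 33.5%, in dKO replicate 1 at day 6. Markers of heart and skeletal muscle, where Cox7a1 is known to be the main form, were also low: their summed level was between 8.99 and 20.3 CPM in E14 at day 15, against 39.8 to 45.5 CPM at day 0, and 5 of the 8 tested were lower at day 15. Their part in the Cox7a1 result was not tested.

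Cox6b2 (chr7:4754791-4756093, GRCm39, minus strand) went the other way. It had 19.1, 25.4 and 26.6 CPM in E14 at day 15, against 18.5, 11.8 and 12.8 CPM at day 0. The groups came close but did not overlap, and the log2 fold change was 0.76 ± 0.22 (SE, edgeR's quasi-likelihood test, adjusted p = 0.00805). Per exon length its share of the Cox6b1 and Cox6b2 sum was 14.1 ± 2.30% at day 15, against 7.75 ± 0.564% at day 0 (SD, n = 3 each). The share had reached 14 ± 2.40% by day 2. The other testis forms, Cox7b2 and Cox8c, reached at most 0.742 and 0.391 CPM in any library, and the muscle form Cox6a2 at most 0.422 CPM. Germline markers, a list of 6 genes, had between 2.88 and 10.2 CPM in E14 at day 15, against 45.3 to 55.8 CPM at day 0, and all 6 were lower. Their part in the Cox6b2 result was not tested. Among the c subunit genes, Atp5g1 was 18.0%, 11.7%, 10.6% and 14% of the 3 per exon length on days 0, 2, 6 and 15 in E14, Atp5g2 36.0%, 47.3%, 48.1% and 34.8%, and Atp5g3 46.1%, 41.0%, 41.3% and 51.2%. These genes are near-identical in part, so reads may have been split between them.

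**Figure D3:**
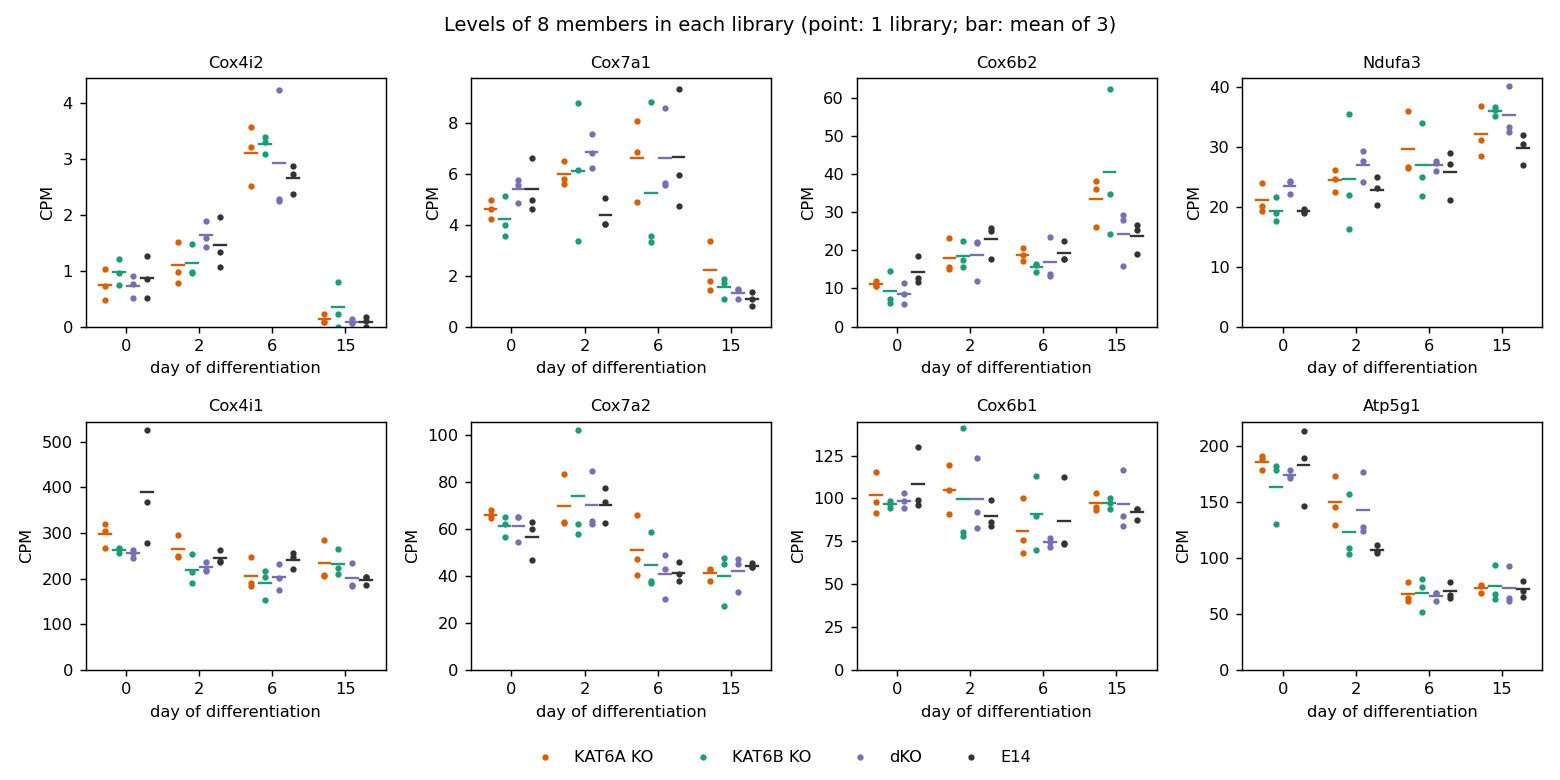
CPM of 8 members in each library by day (vertical axes, CPM; horizontal axes, day), with a point for each library, colours for the genotypes and a bar at the mean of 3. Atp5g1 and Cox7a1 are lower in the day 15 libraries of E14 (65.3 to 79.3 CPM and 0.801 to 1.38 CPM) than at day 0 (146 to 213 CPM and 4.61 to 6.62 CPM), Cox4i2 is highest at day 6, and Ndufa3 and Cox6b2 are higher at day 15.

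The steps between neighbouring sampling days were tested in the same E14 fit. Between day 2 and day 0 in E14, 6 of the 81 members were lower and 2 higher (21.6% of all genes called, 12.1% lower and 9.5% higher), below the share of all genes. Atp5g1 fell by 0.79 ± 0.14 and Uqcrc1 by 0.66 ± 0.14 on the log2 scale (SE, edgeR's quasi-likelihood test, adjusted p = 0.00261 and 0.00525). Ndufb10, Ndufa8, Cox4i1 and Ndufa11 fell by 0.88, 0.73, 0.69 and 0.42, and Ndufs4 and Ndufa7 rose by 0.46 and 0.39. The count at this step rested on single libraries: 4, 22 or 4 members were called without E14 day 0 replicate 1, 2 or 3, and 2, 2 or 5 without E14 day 2 replicate 1, 2 or 3. Atp5g1 and Uqcrc1 were called in all 14 alternative settings, and the other 6 were each lost in 3 to 7 of them.

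Between day 6 and day 2, when retinoic acid had been added, 25 of the 81 members fell and none rose (41.7% of all genes called, 19.6% lower and 22.1% higher). Of these, 12 were among the 18 entries of complex V, 6 in complex I, 5 in complex IV and 2 in complex III. Cox7b fell by 0.81 ± 0.14, Cox7a2 by 0.73 ± 0.14, Atp5l by 0.67 ± 0.12 and Atp5b by 0.67 ± 0.11 (SE, edgeR's quasi-likelihood test, adjusted p = 0.000462, 0.000736, 0.000431 and 0.000363). Without E14 day 6 replicate 3, 16 members were called. With library totals in place of the scaling factors 10 fell and 3 rose, and the median was -0.00, with the median of all genes moved by 0.21. Relative to all genes the members' median was -0.257 with scaling factors and -0.255 with library totals.

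Between day 15 and day 6, 17 of the 81 members fell and 2 rose (54.6% of all genes called, 27.2% lower and 27.3% higher). Beside Cox4i2 and Cox7a1, those that fell most were Cox7c, by 0.86 ± 0.18, Ndufa7, by 0.83 ± 0.12, and Atp5g2, by 0.81 ± 0.12 (SE). Uqcrq had 94.0, 98.2 and 85.5 CPM at day 15, against 70.9, 62.7 and 52.6 CPM at day 6, without overlap, and rose by 0.59 ± 0.14 (SE, edgeR's quasi-likelihood test, adjusted p = 0.00241). Atp5l had 58.2, 56.8 and 61.7 CPM at day 15, against 49.7, 44.9 and 40.1 CPM at day 6, and rose by 0.41 ± 0.11 (SE, adjusted p = 0.00811), a call lost without replicate 3 of either day. Without E14 day 6 replicate 1, 12 members were called, and with library totals in place of scaling factors 32 were.

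The rest of the mitochondrial and energy genes give the setting of these differences. The 13 transcripts encoded in mitochondrial DNA had another course than the nuclear members. Their summed level in E14 averaged 10738 ± 5119, 18032 ± 1604, 8401 ± 863 and 12820 ± 1407 CPM on days 0, 2, 6 and 15 (SD, n = 3 each). Of the 12 tested, 11 fell between day 6 and day 2, where 19.6% of all genes were called lower. Between day 15 and day 6, 5 rose, which is 41.7%, against 27.3% of all genes. At day 15 against day 0, 4 were higher and 1 lower. The share called there, 41.7%, was below the 69.7% of all genes, and the share higher, 33.3%, was below their 36.5%. mt-Cytb, the cytochrome b of complex III, was higher at day 15 than at day 0 by 0.69 ± 0.28 on the log2 scale (SE, edgeR's quasi-likelihood test, adjusted p = 0.0427), while its nuclear partners Uqcrc1 and Uqcrfs1 were lower. The E14 day 0 libraries had 5859, 16068 and 10289 CPM of these transcripts, a range wider than that of any other E14 day, and the day 15 libraries, at 12384, 11683 and 14393 CPM, lay within it. Day 2 had the highest mean in each genotype, and in each knockout 1 day 2 library stood far above the other 2, at 32441 CPM in KAT6A KO, 34268 CPM in KAT6B KO and 33620 CPM in dKO.

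Of all genes, 33.2% were lower and 36.5% higher in E14 at day 15 than at day 0. Each set below of nuclear genes that serve the complexes had a larger share lower. Of the mitochondrial ribosome genes 69 of 78 fell and none rose, with a median log2 fold change of -1.08, and Mrpl45 had 37.5 ± 3.59 CPM at day 15, against 160 ± 8.97 CPM at day 0 (SD, n = 3 each). Of the complex I assembly factors 10 of 16 fell and none rose, led by Ndufaf6 and Ecsit. Of the factors for complexes II to V 16 of 35 fell, which is 45.7%, and 4 rose. The shares called in either direction, 62.5% and 57.1%, were below the 69.7% of all genes. Lrpprc, which stabilises mitochondrial messenger RNA, had 81.6 ± 1.91 CPM at day 15, against 227 ± 23.1 CPM at day 0. Cyc1, the cytochrome c1 of complex III that the symbol rule does not take in, fell by 1.43 ± 0.16 (SE, adjusted p = 2.35e-06). In the tricarboxylic acid cycle 14 of 18 genes fell and 1 rose. Of the glycolysis and lactate genes, 12 of 22 were higher and 1 lower at day 2 against day 0. At day 15 against day 0, 3 were higher and 17 lower. Pdk1, which restrains the entry of pyruvate into the tricarboxylic acid cycle, stood at 19.1 ± 3.11 CPM at day 15, against 185 ± 35.4 CPM at day 0. Eno2, the neuronal enolase, was among those higher, at 53.9 ± 14.8 CPM at day 15, against 4.76 ± 1.46 CPM at day 0.

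Regulators of mitochondrial gene expression split at day 15 in E14: 11 of 17 fell and 3 rose. Esrrb, an orphan receptor of the naive pluripotency network, had 19.5 ± 6.82 CPM at day 15, against 460 ± 15.9 CPM at day 0, and Pprc1, a PGC-1 related coactivator, 117 ± 15.0 CPM, against 457 ± 43.7 CPM. Ppargc1a, the coactivator PGC-1 alpha, averaged 13.7 ± 3.98 CPM at day 15 and was at 0 in all 3 libraries at day 0. Esrrg, a receptor known to drive oxidative metabolism in neurons, had 15.5 ± 5.43 CPM at day 15, against 0.181 ± 0.0268 CPM at day 0 (SD, n = 3 each). With no count at day 0, Ppargc1a could pass the filter on low counts through later days only. Its place among the genes tested is thus no support beyond these levels, and Esrrg was near 0 at day 0 too. Mitosis and replication markers, with which these genes share the fall, had summed levels of 899 to 1138 CPM in E14 at day 15, against 3573 to 4216 CPM at day 0. Neuron markers had 2100 to 3625 CPM at day 15, against 397 to 440 CPM at day 0, and mesenchyme markers 1953 to 4709 CPM, against 311 to 427 CPM. The part of cell division or of the mix of cells in the fall of the members was not tested.

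**Figure D4:**
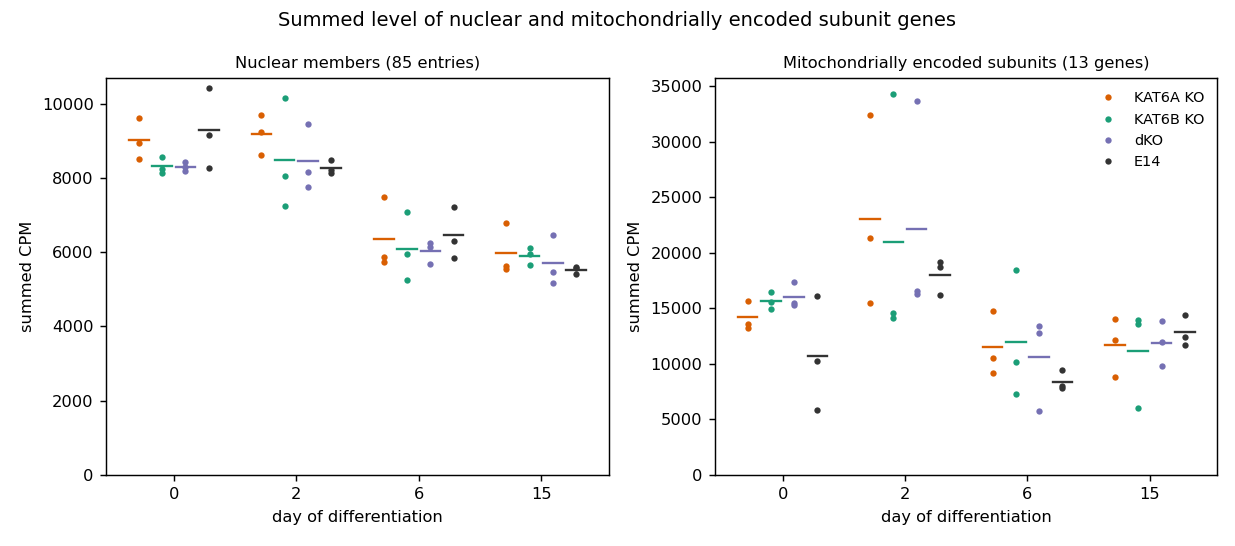
Summed CPM of the nuclear members (left) and of the 13 mitochondrially encoded genes (right) by day (horizontal axes, day; vertical axes, CPM), with a point per library, a bar at the mean of 3 and colours for genotypes. The nuclear sums in E14 are lower at day 15 (5404 to 5596 CPM) than at day 0 (8275 to 10423 CPM), while the mitochondrial sums have their highest E14 mean at day 2 (18032 CPM).

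The 3 knockouts showed the same direction over time. Between day 15 and day 0, 50 of 82 members were lower and 3 higher in KAT6A KO (68.2% of all genes called, 32.5% lower and 35.6% higher), 28 lower and 5 higher in KAT6B KO (61.8% called, 28.3% lower and 33.6% higher) and 42 lower and 5 higher in dKO (66.8% called, 32.9% lower and 33.9% higher). The median log2 fold changes were -0.38, -0.19 and -0.40 in this order, against 0.10, 0.17 and 0.06 over all genes. Without replicate 1 of the libraries labelled KAT6B KO at day 15, 37 members were lower and 2 higher there and the median was -0.35, and without replicate 3 of those labelled dKO, 45 were called in dKO and the median was -0.37. Of the 81 members tested in all 4 genotypes, 59 estimates were negative in all 4 and 3 positive in all 4, and no member was called in opposite directions. The matching shares of all genes were not worked out.

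A set of 27 entries was called lower at day 15 in all 4 genotypes. The share of all genes called lower in all 4 was not worked out, so this count is a description and no result about the members. It held 9 entries of complex V, namely Atp5a1, Atp5b, Atp5c1, the 3 c subunit genes, both Atp5o entries and Atp5pb. It also held Ndufs1, Ndufs6, Ndufv2, Ndufa7, Ndufa9, Ndufa10, Ndufb5 and Ndufb8 of complex I, Sdha, Uqcrb, Uqcrc1 and Uqcrc2, and Cox5a, Cox6c, Cox7a1, Cox7a2, Cox7b and Cox7c of complex IV. Cox6b2 and Ndufa3 were called higher in all 4. Atp5b at day 15 had 991, 867 and 786 CPM in KAT6A KO, 741, 872 and 837 CPM in KAT6B KO and 832, 797 and 752 CPM in dKO, against 748, 836 and 754 CPM in E14, so the genotypes overlapped at this level. Ndufa3 at day 15 had 36.9, 31.1 and 28.5 CPM in KAT6A KO, 36.1, 36.8 and 35.1 CPM in KAT6B KO and 40.3, 32.5 and 33.4 CPM in dKO, against 30.6, 32.0 and 27.0 CPM in E14. All libraries of KAT6B KO and dKO stood above the highest E14 library and those of KAT6A KO overlapped with E14. Cox6b2 at day 15 had 36.1, 26.1 and 38.3 CPM in KAT6A KO, 62.3, 34.8 and 24.2 CPM in KAT6B KO and 29.2, 15.9 and 27.9 CPM in dKO, against 19.1, 25.4 and 26.6 CPM in E14, and each knockout overlapped with E14.

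Over time, Cox6b2 rose by 1.59 ± 0.21 on the log2 scale in KAT6A KO, 2.20 ± 0.40 in KAT6B KO and 1.47 ± 0.30 in dKO (SE, edgeR's quasi-likelihood test, adjusted p = 2.81e-05, 0.000567 and 0.000775), against 0.76 ± 0.22 in E14. Atp5g1 fell by 1.35 ± 0.14, 1.05 ± 0.20 and 1.28 ± 0.18 in the knockouts in the same order, against 1.32 ± 0.15 in E14 (SE). Cox7a1 fell by 1.08 ± 0.33, 1.36 ± 0.33 and 2.04 ± 0.29, against 2.28 ± 0.32 in E14 (SE). Cox4i2 was called lower in KAT6A KO, dKO and E14, and in KAT6B KO its log2 fold change was -1.45 ± 1.01 (SE, adjusted p = 0.229), with day 15 values of 0.807, 0 and 0.223 CPM. It had 20 counts over the day 15 libraries of KAT6A KO and 14 over those of dKO, against 87 and 84 at day 0. Cox4i2 thus passed the filter on low counts through groups where it was high, and its calls are no support beyond these counts. Both Cox7b2 and Cox6a2 passed the filter on low counts only in fits that held a group where they were high, so their calls are no support for a change. Cox7b2 is 1 of the 42 entries called lower in dKO, with 5 counts over the 3 day 15 libraries, against 65 over the 3 at day 0. Cox6a2 is 1 of the 3 called higher in KAT6A KO, with 30 counts over its day 15 libraries and none at day 0, and that call was lost without replicate 3 of either day. Cox6a1, Ndufa6 and Ndufa13 were called higher in KAT6B KO and dKO. In KAT6B KO the call of Cox6a1 was lost in 11 of 14 alternative settings, that of Ndufa6 in 9 and that of Ndufa13 in 1. All 3 were lost without replicate 1 of the libraries labelled KAT6B KO at day 15. In dKO the 3 calls were lost in 3 to 5 of 14.

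Against E14 on the same day, no member was called in any of the 12 comparisons of a knockout with E14 by edgeR's quasi-likelihood test. The share of all genes called was 0%, 0.0105% and 2.09% at day 0 for KAT6A KO, KAT6B KO and dKO, 0.0102%, 0% and 1.12% at day 2, 0%, 0.0292% and 0.0681% at day 6, and 0%, 0.074% and 3.17% at day 15. At an unadjusted p under 0.05 stood 6, 24 and 23 of 82 members at day 0, against 4.75%, 11.8% and 18.2% of all genes, so the members' shares of 7.32%, 29.3% and 28% were above those of all genes. At day 2 it was 8, 0 and 2 of 82, against 10.2%, 4.07% and 12.7% of all genes, and at day 6 none of 83, against 5.3%, 13% and 8.12%. At day 15 it was 2, 1 and 3 of 82, against 11.4%, 20% and 24.6% of all genes, so the members' shares were below those of all genes. DESeq2 called 1 member in dKO at day 0, 1 in KAT6B KO at day 15 and 1 in dKO at day 15, and none in the other 9. Each of the 3 knockouts is compared with the same E14 libraries. Data were also simulated for dKO against E14 with known changes. The fits of days 0, 2, 6 and 15 found 58%, 47%, 46% and 4% of 2-fold changes. Of 4-fold changes they found 79%, 85%, 77% and 56%. The changes were placed in 200 genes drawn from all those tested, at any level and spread. These shares therefore hold for genes at large, and the share for the members was not worked out. A member that was not called may still differ.

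At day 0, the estimates leaned below 0, with medians of -0.14, -0.18 and -0.15 and 65, 71 and 69 of 82 estimates negative in KAT6A KO, KAT6B KO and dKO. The summed level of the members was 8512 to 9623 CPM in KAT6A KO, 8143 to 8578 CPM in KAT6B KO and 8191 to 8432 CPM in dKO, against 8275 to 10423 CPM in E14, so all groups overlapped and E14 replicate 1 alone made the upper end. Cox4i1 had 267, 320 and 303 CPM in KAT6A KO, 266, 256 and 265 CPM in KAT6B KO and 257, 246 and 264 CPM in dKO, against 525, 278 and 368 CPM in E14. The KAT6B KO and dKO libraries were below all E14 libraries by a small margin from the lowest, and the log2 differences were -0.62 ± 0.17 and -0.65 ± 0.17 (SE, adjusted p = 0.234 and 0.0605). Without E14 day 0 replicate 2, 18 members were lower in KAT6B KO and 22 in dKO, and without replicate 1 none were, with medians of -0.02, -0.09 and -0.08 in the 3 knockouts. The summed level of the mitochondrially encoded transcripts was 13258 to 17377 CPM over the knockout libraries at day 0, against 5859 to 16068 CPM in E14, and none of them was called.

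**Figure D5:**
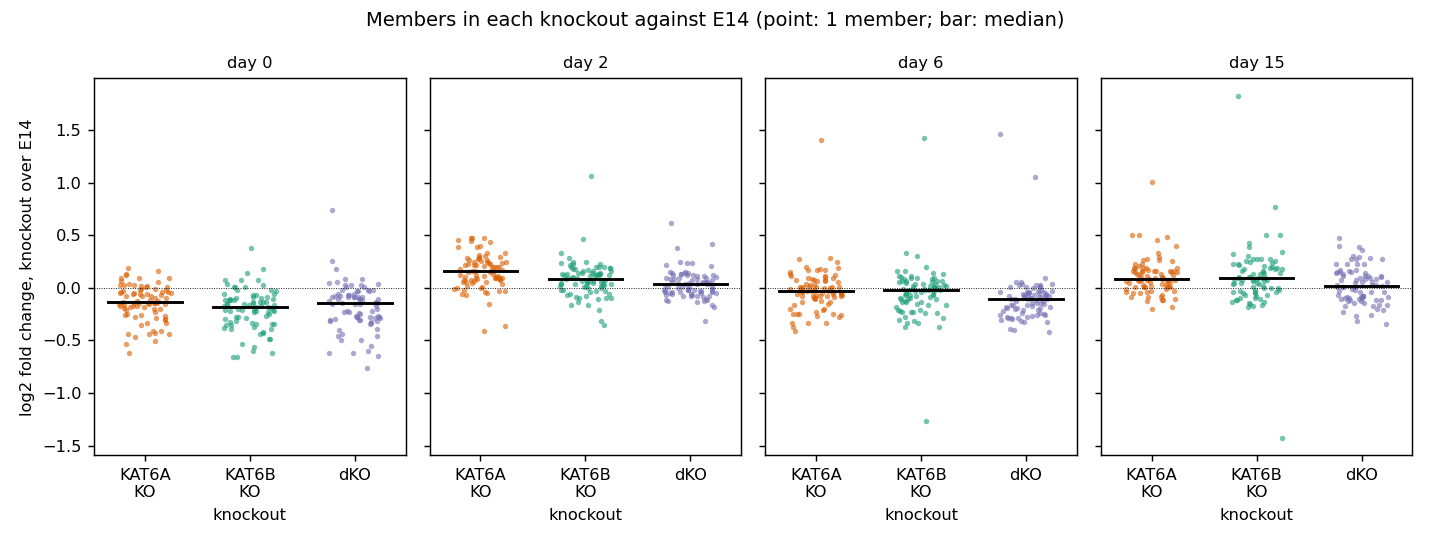
Log2 fold change of each tested member, knockout over E14 (vertical axes), for KAT6A KO, KAT6B KO and dKO (horizontal axes), one panel per day, with a point per member and a bar at the median. The medians at day 0 are -0.14, -0.18 and -0.15, and no point on any day passed the adjusted p threshold of 0.05.

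On later days the medians lay on both sides of 0. At day 2 they were 0.16, 0.08 and 0.03 in KAT6A KO, KAT6B KO and dKO, at day 6 -0.03, -0.02 and -0.11, and at day 15 0.08, 0.09 and 0.02. With library totals in place of scaling factors, the day 15 medians turned to -0.04, -0.03 and -0.16, while the median of all genes moved by -0.12, -0.12 and -0.18, so that the members relative to all genes stood at 0.07, 0.04 and 0.01 with either scaling. Single libraries also turned these medians. At day 2 the KAT6B KO median was -0.12 without its replicate 2, and the dKO median -0.06 without its replicate 3. At day 6 the median was 0.08 in KAT6A KO and 0.10 in KAT6B KO without E14 replicate 1, and -0.17 and -0.18 without replicate 2 of the knockout itself. The dKO median at day 6 ranged between -0.18, without E14 replicate 3, and -0.00, without E14 replicate 1. At day 15 the medians were -0.00, 0.02 and -0.08 without replicate 1 of KAT6A KO or of the libraries labelled KAT6B KO or dKO, and 0.05 without replicate 3 of those labelled dKO. The summed level at day 15 was 5552 to 6796 CPM in KAT6A KO, 5652 to 6124 CPM in KAT6B KO and 5184 to 6453 CPM in dKO, against 5404 to 5596 CPM in E14. The complex V sum was 2531 ± 259, 2465 ± 67.2 and 2354 ± 226 CPM in the knockouts in the same order, against 2359 ± 56.4 CPM in E14 (SD, n = 3 each). Cox7a2l, the supercomplex factor, had the lowest adjusted p of the day 15 comparisons, with 71.7 ± 2.00 CPM in dKO, against 57.5 ± 1.01 CPM in E14 (SD, n = 3 each), a log2 difference of 0.30 ± 0.09 (SE, adjusted p = 0.0859). Uqcrq had 167, 127 and 103 CPM in KAT6A KO, 89.9, 123 and 117 CPM in KAT6B KO and 172, 108 and 110 CPM in dKO, against 94.0, 98.2 and 85.5 CPM in E14. KAT6A KO and dKO stood above all E14 libraries and KAT6B KO overlapped, and none of the 3 differences was called. Sums of cell type markers also varied, although no neuron or mesenchyme marker was called in any knockout. Neuron markers had 732 to 2375 CPM in KAT6A KO, 374 to 1752 CPM in KAT6B KO and 365 to 1568 CPM in dKO, against 2100 to 3625 CPM in E14. Mesenchyme markers had 3081 to 7430, 4978 to 18891 and 7734 to 9466 CPM, against 1953 to 4709 CPM in E14. Both KAT6A KO ranges overlapped with E14. Of 10 neural progenitor markers, 4 were lower in dKO, 1 in KAT6B KO and none in KAT6A KO, and none was higher. In dKO 3 of 8 astrocyte and oligodendrocyte markers were lower and none higher, where 3.17% of all genes were called. The part of these cell types in the values of the members was not tested.

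The change over time was also compared between each knockout and E14 by an interaction term. None of the 82 members was called in KAT6A KO, KAT6B KO or dKO (0%, 0.0436% and 2.52% of all genes called), and 6, 6 and 10 had an unadjusted p under 0.05, which is 7.32%, 7.32% and 12.2%, against 9.75%, 14.5% and 20.9% of all genes. Without E14 day 0 replicate 1 none was called and the median differences below became 0.07, 0.14 and 0.10. Without replicate 1 of the libraries labelled KAT6B KO at day 15, or replicate 3 of those labelled dKO, none was called and the medians were 0.17 and 0.20. DESeq2 called none in any of the 3. The median differences were 0.18, 0.16 and 0.18 on the log2 scale and, in dKO, -0.04 with library totals in place of scaling factors, a choice that moved the median of all genes by -0.22. Relative to all genes the dKO median was 0.20 with either scaling. Uqcrq in dKO had the lowest adjusted p, with a difference of 0.73 ± 0.24 (SE, edgeR's quasi-likelihood test, adjusted p = 0.121). Cox4i1 in KAT6B KO differed by 0.72 ± 0.27 (SE, adjusted p = 0.269), where the high E14 day 0 replicate 1 enters, and Cox6b2 differed by 0.88 ± 0.30 in KAT6A KO (SE, adjusted p = 0.468). In simulated data these interaction fits found 2% to 6% of 2-fold differences and 27% to 52% of 4-fold ones. These shares too are for genes drawn from all those tested and not for the members, so differences of members may have been missed.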

How the data were processed

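Bulk RNA-seq was done on 48 libraries of mouse embryonic stem cells, 3 for each of 4 genotypes on 4 days. Libraries were made from total RNA after removal of ribosomal RNA, with a directional kit and paired ends, per the labels' protocols. HISAT2 and the build GRCm39 are named in the submitters' processing notes. The counting program and its strand setting and annotation were not given in the sources used. The authors deposited 1 table of raw counts per gene. Library totals ranged from 22654491 to 72773858 counts, and these totals set the counting precision. Of the 36983 entries, 48 repeat an identifier, and all entries were kept.

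Counts were tested with edgeR 4.0.16 in R 4.3.3, by the quasi-likelihood F test with scaling by the trimmed mean of M values, filterByExpr (minimum count 10, minimum total 15) and Benjamini-Hochberg adjustment over all genes of a fit. Each of 8 fits held 12 libraries: the 4 days of E14, the 4 genotypes of each day, and each knockout with E14 at day 0 and day 15. In each fit 1 estimate of spread is shared over its groups, so the knockouts' changes over time use a spread shared with E14. The common coefficient of variation between replicates was 23.3% in the E14 fit. It was 25.0%, 33.1% and 27.1% in the fits of KAT6A KO, KAT6B KO and dKO over time. Counts of called members between these fits were thus made at unlike spreads. CPM were computed over all 48 libraries, adding 2 prior counts before taking log2, and per kilobase of exon union for levels between genes. The standard error is the log2 fold change divided by the square root of F. Summed levels and isoform shares are descriptions. The fits were tested on simulated data with known changes. Alternatives were DESeq2 1.42.0, other scalings and filters, all libraries in 1 fit, a replicate block and leaving out each library. Leaving out repeated identifiers was added after seeing the data. The members, gene lists and comparisons were chosen with earlier results of these data known. Named genes were the tissue isoforms, up to 6 called members per direction and comparison by size of change, the highest and lowest level of each complex, and up to 4 members against the main direction. Others were chosen after their values were seen, for their role in a complex or for a printed promoter. Comparisons of the knockouts with E14 on a day share the E14 libraries. Replicates came from independent differentiations, per the series' design text. Deviations from the group means were compared between same-numbered libraries: in 1 of 19 compared pairs of groups, dKO and E14 at day 6, all 3 correlations were above 0.1 (0.145 to 0.460), and the labels do not say that a number marks a shared experiment.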

Additional observations from a re-analysis of the deposited data

How the results depend on the processing

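The counts of called members kept their size within 1.5 times in 19 of 22 comparisons with DESeq2, in 22 with relative log expression scaling, in 22 with a filter of 1 CPM in 3 libraries, in 21 with no filter, in 20 with library totals, in 21 with all 48 libraries in 1 fit, and in 22 without repeated identifiers. The 12 comparisons of a knockout with E14 and the 3 interactions had no called member, and count as kept wherever none was called again. Most of this agreement is thus between counts of 0. With library totals, 13 members were called between day 6 and day 2 in E14 and 32 between day 15 and day 6. For dKO against E14 at day 0, 1 member was called with no filter, 1 with the replicate block and 1 with DESeq2. DESeq2 also called 1 member for KAT6B KO and 1 for dKO against E14 at day 15, and the fit of all 48 libraries called 1 for the interaction of KAT6B KO. No named member with a call changed direction in these alternatives. Leaving out 1 library at a time gave 2 to 22 called members for E14 day 2 against day 0, 16 to 28 for day 6 against day 2, 12 to 25 for day 15 against day 6 and 44 to 57 for day 15 against day 0. It gave 38 to 57 for day 15 against day 0 in KAT6A KO, 28 to 39 in KAT6B KO and 40 to 52 in dKO. Against E14 at day 0 it gave 0 to 18 in KAT6B KO and 0 to 22 in dKO, and for the dKO interaction 0 to 2, with 0 in the other comparisons of a knockout with E14. The median of all genes moved by 0.17 on the log2 scale between scalings for E14 day 15 against day 0, where 38 members were lower and 3 higher with library totals. Replicate numbers paired the libraries in 1 of the 19 pairs of groups compared, dKO and E14 at day 6, where all 3 same-numbered pairs had deviations correlated above 0.1; there the replicate block called 0 members, as without it. In the other 18 at least 1 of the 3 was lower, although in 2 of them, day 15 against day 6 in E14 and dKO against E14 at day 0, every library correlated best with its own number, as a hint from the data and not the design. Apart from the dKO count at day 0, the replicate block moved no count by more than 1.5 times. The causes of these differences were not tested. Counting depth limits Cox8b, Cox6a2, Cox7b2, Cox8c and Cox4i2.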
